A study of Mus musculus with 4 samples.

Results

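Aminoacyl-tRNA synthetases, the enzymes that join each amino acid to its transfer RNA, were examined in cultured mouse cortical neurons given a p53 activator. Members were chosen by gene symbol alone: every row of the deposited table named as a synthetase of the cytosol or of the mitochondria, plus Farsa, Farsb, Eprs and the scaffold genes Aimp1, Aimp2 and Eef1e1. Of 18854 genes in the table, 40 met this rule, 23 of them cytosolic (20 enzyme genes and 3 scaffolds) and 17 mitochondrial. All 40 passed the filter on low values and were tested.

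Total RNA was sequenced from 4 libraries of wild-type cortical neurons kept for 15 days in culture. In 2 of them the neurons had received Nutlin-3 for 2 days, a small molecule that frees p53 from its inhibitor Mdm2. The other 2 are titled DMSO, the solvent, while their treatment label reads as untreated. Nothing in the labels ties the libraries of a group to separate cultures. The p-values therefore reflect the spread between the libraries at hand, and that spread may be technical.

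Apart from Eprs, which charges glutamate and proline tRNAs in 1 protein, each synthetase recognises 1 amino acid and its tRNAs. Translation stops where a charged tRNA is lacking. In the cytosol of animal cells a set of the enzymes is held in the multisynthetase complex by the scaffolds Aimp1, Aimp2 and Eef1e1, and the others work unbound. Mitochondria translate their own genome with separate, nuclear-encoded enzymes whose symbols end in 2, except that Kars and Gars each supply both compartments. When amino acids run short or the endoplasmic reticulum is stressed, the transcription factor ATF4 is translated and is known to raise many cytosolic synthetase genes. Variants in several of the genes, among them Gars, Yars, Aars and Wars1, are known to cause inherited neuropathy of peripheral axons.

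Expression was given as CPM, the reads of a gene scaled to 1 fixed total per library. The libraries held 14584247 and 14968028 counted reads (DMSO) and 19065197 and 17716272 (p53 activator). Their composition differed by group. RNAs of the mitochondrial genome made up 15.7% and 14.3% of reads in listed genes in DMSO but 8.98% and 10.007% with the activator, and nuclear protein-coding genes 74.8% and 77.1% against 84.4% and 83.8%. Since CPM share 1 fixed total, values are also given after scaling nuclear protein-coding genes to their own total. The log2 fold changes of these genes were lower by a median of 0.14 after it. Neuronal markers were abundant. Map2, Syt1, Stmn2, Snap25, Tubb3 and Rbfox3 summed to 6437 to 7181 CPM in DMSO and 7485 to 7614 CPM with the activator. Of these 6, 4 rose (66.7%) and Rbfox3 fell (16.7%), beside 16.9% and 16.3% of all genes. After scaling to the protein-coding total 4 rose and 2 fell, Rbfox3 and Map2, beside 4.44% and 12.9% of genes. All 7 astrocyte markers were also present and summed to 2228 to 2250 CPM and 2597 to 2598 CPM. Of them 1, Slc1a2, was higher (14.3%), but not after that scaling (0.11, limma adjusted p = 0.294). Of the oligodendrocyte lineage markers, 6 of 8 were listed, summed to 165 to 171 CPM and 187 to 190 CPM, and 0 passed the test, while 3 of 6 microglial markers summed to under 5 CPM in each library, with Cx3cr1, Tmem119 and C1qa not analysed here. The part of this glial RNA in the results below was not tested. In such bulk samples, fewer cells of a type and less RNA per cell cannot be told apart.

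Of the 23 cytosolic genes, 7 rose and 0 fell with the activator at a limma adjusted p under 0.05: Wars1, Yars, Gars, Aars and Nars among the free enzymes, Kars in the multisynthetase complex and the scaffold Eef1e1. That is 30.4% of the cytosolic genes, beside 16.9% of all 16654 genes tested and 20.9% of the nuclear protein-coding genes tested that rose. With a filter of 5 CPM, which all 23 genes pass, 8 of the 23 rose, beside 23.8% of 12091 genes. The rises were small, between 1.20-fold and 1.33-fold in mean CPM. At an unadjusted p under 0.05, 10 cytosolic genes had higher and 0 lower values. The share of all genes at that threshold was not counted, so the 10 cannot be set against it. Both edgeR and DESeq2 also called 0 lower, where 16.1% and 9.71% of all genes fell. The median log2 fold change of the 23 genes was 0.16, beside 0.03 for all genes tested and 0.09 for nuclear protein-coding genes. With the 5 CPM filter the medians of all genes and of protein-coding genes were 0.095 and 0.12. In 17 of the 23 genes (73.9%) both activator libraries lay above both DMSO libraries, beside 36.6% of all genes and 44.7% of protein-coding genes. After scaling to the protein-coding total, 2 of the 23 genes (8.70%) rose, Wars1 and Yars, beside 4.44% of genes, and the median was 0.02. Without DMSO replicate 1, 3 of the 23 rose, Wars1, Yars and Gars, beside 6.83% of genes. With a spread that did not follow expression, 1 rose, Wars1, beside 1.81% of genes.

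**Figure D1:**
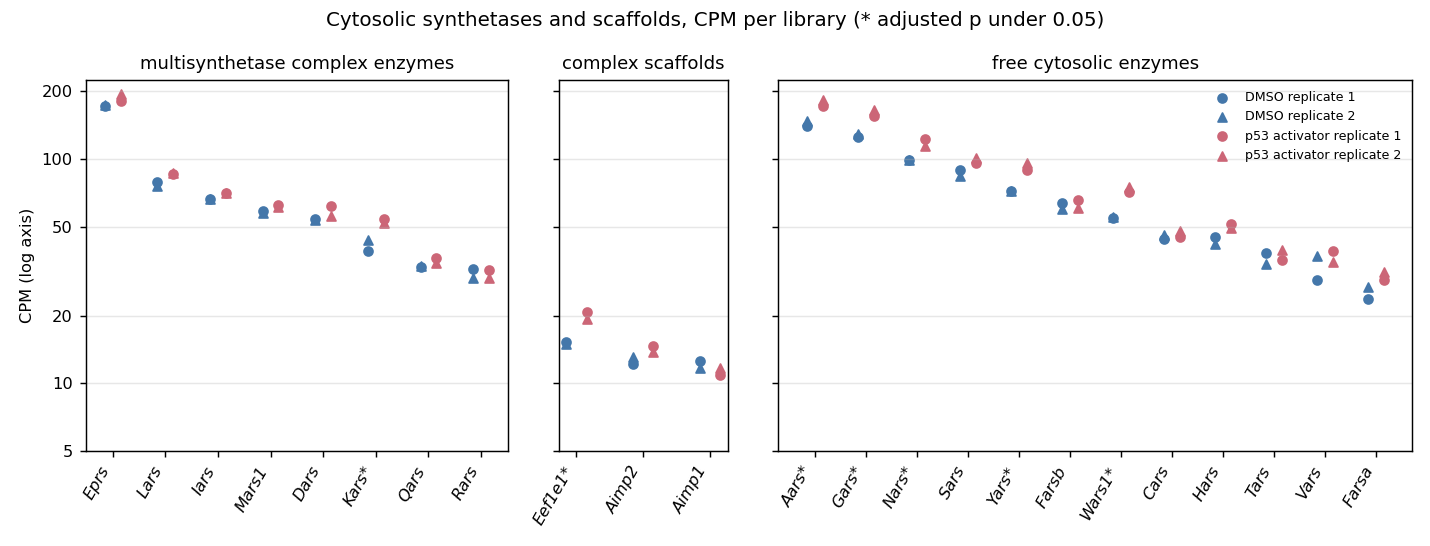
CPM of the 23 cytosolic synthetase and scaffold genes in each of the 4 libraries, on a log axis, ordered within each panel by the DMSO mean; blue marks are DMSO, red marks the p53 activator, circles replicate 1 and triangles replicate 2. Both red marks lie above both blue marks in 17 of the 23 genes, and stars mark the 7 genes that rose.

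The free cytosolic enzymes held 5 of the 7 rises among their 12 genes (41.7%, beside 16.9% of all genes and 20.9% of protein-coding genes). Their median log2 fold change was 0.23. Wars1, which charges tryptophan and is also known as an interferon-induced gene, had the largest. It stood at 54.6 and 55.1 CPM under DMSO against 71.5 and 74.8 CPM under the activator, so the groups were well apart and each was tight. Its log2 fold change was 0.41 ± 0.08 (SE), with a limma adjusted p of 6.23e-05, and its call was kept under all 15 alternative settings. After scaling to the protein-coding total its log2 fold change was 0.26 (adjusted p = 0.0143).

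Yars, the tyrosine enzyme, stood at 71.8 and 72.0 CPM under DMSO against 88.9 and 95.5 CPM under the activator. The DMSO libraries were almost equal and both activator libraries were higher, a log2 fold change of 0.35 ± 0.08 (SE, adjusted p = 0.000331). Under the protein-coding total the value was 0.21 (adjusted p = 0.0469). Gars, the glycine enzyme of both compartments, stood at 126 and 129 CPM against 156 and 166 CPM, again without overlap, a log2 fold change of 0.33 ± 0.08 (adjusted p = 0.000444). Scaling to the protein-coding total ended the call of Gars (0.18, adjusted p = 0.0577).

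Aars, which charges alanine, was the most abundant free enzyme by CPM. It stood at 141 and 148 CPM under DMSO against 172 and 182 CPM under the activator, and the lowest activator value lay above the highest DMSO value. Its log2 fold change was 0.29 ± 0.08 (adjusted p = 0.00168), and 0.15 (adjusted p = 0.133) under the protein-coding total. The annotated exons of Aars share 1326 bases on the same strand with Exosc6, which was not analysed here, so some of its reads could belong to that gene. Nars, the asparagine enzyme, stood at 98.7 and 99.1 CPM against 123.2 and 114 CPM, with the spread all on the activator side. Its log2 fold change was 0.26 ± 0.08 (adjusted p = 0.00664), and 0.11 (adjusted p = 0.292) under the protein-coding total.

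The other 7 free enzymes did not pass the test. The closest to the threshold were Hars (histidine; log2 fold change 0.22, adjusted p = 0.0531), Sars (serine; 0.19, adjusted p = 0.0576) and Farsa (the alpha subunit for phenylalanine; 0.24, adjusted p = 0.0690), each with both activator libraries above both DMSO libraries. Groups were apart in that way in 36.6% of all genes and 44.7% of protein-coding genes. Farsb, the beta subunit of the same enzyme as Farsa, had a log2 fold change of 0.04 with overlapping groups (63.5 and 59.6 CPM against 65.9 and 60.6 CPM). Groups also overlapped for Tars (threonine), Vars (valine) and Cars (cysteine), with log2 fold changes of 0.05, 0.16 and 0.05. Vars was uneven within DMSO, at 29.0 and 37.1 CPM.

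The 8 enzymes of the multisynthetase complex held 1 of the rises, Kars (12.5% of the 8), and had a median log2 fold change of 0.10. Beside this, 16.9% of all genes and 20.9% of protein-coding genes rose. The difference between free and complex enzymes was not tested. Kars, the lysine enzyme, stood at 39.0 and 43.7 CPM under DMSO against 54.0 and 51.6 CPM under the activator. The gap between groups was wider than the gap within either, a log2 fold change of 0.35 ± 0.09 (adjusted p = 0.00147), and 0.20 (adjusted p = 0.0933) under the protein-coding total. Without DMSO replicate 1 its call was lost (0.27, adjusted p = 0.101). Eprs, a fused enzyme for glutamate and proline and the most abundant member of the complex, stood at 173 and 175 CPM against 181 and 195 CPM. Its groups did not overlap, but the log2 fold change of 0.11, with a 95% interval of -0.04 to 0.27, did not pass the test (adjusted p = 0.261).

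Lars (leucine), Dars (aspartate), Iars (isoleucine), Qars (glutamine) and Mars1 (methionine) had log2 fold changes of 0.15, 0.13, 0.09, 0.09 and 0.08. None passed the test. In each of the 5 both activator libraries lay above both DMSO libraries, beside 36.6% of all genes and 44.7% of protein-coding genes. Rars, the arginine enzyme, had overlapping groups and a log2 fold change of -0.02. Under the protein-coding total, 0 complex enzymes rose and 2 of the 8, Kars and Lars, had a positive log2 fold change.

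The 3 scaffolds had values in both directions, and differences among them were not tested. Eef1e1, also called AIMP3, stood at 15.4 and 15.0 CPM under DMSO against 20.9 and 19.3 CPM under the activator, with the groups apart and a log2 fold change of 0.38 ± 0.12 (adjusted p = 0.00971). Its protein is also known to bind the damage kinases ATM and ATR upstream of p53. This call was the least stable of the 7: it was lost in DESeq2, with a spread that did not follow expression, under the protein-coding total (0.24, adjusted p = 0.162), and without DMSO replicate 1, DMSO replicate 2 or p53 activator replicate 1 (adjusted p = 0.0555, 0.0568 and 0.0945). Aimp2, which stood at 12.2 and 13.1 CPM against 14.7 and 13.8 CPM, had a log2 fold change of 0.16 (adjusted p = 0.366). Aimp1 stood at 12.5 and 11.8 CPM against 10.96 and 11.7 CPM, both activator values just under both DMSO values (-0.09, adjusted p = 0.639).

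The cytosolic enzymes commonly described as responsive to ATF4 are Aars, Cars, Eprs, Gars, Iars, Lars, Mars1, Nars, Sars, Tars, Wars1 and Yars. Of these 12, 5 rose (41.7%), with a median log2 fold change of 0.17. Of the other 11 cytosolic genes 2 rose (18.2%), Kars and Eef1e1, with a median of 0.16. Of all genes tested 16.9% rose, and of nuclear protein-coding genes 20.9%. Under the protein-coding total 2 of the 12 and 0 of the 11 rose, beside 4.44% of genes. The difference between the 2 groups was not tested. ATF4 binds, with a C/EBP partner, a composite element whose core reads TGATGNAA. RefSeq promoters on build GRCm38.p6, from 250 bases before to 50 after the annotated start, were matched by symbol for 30 of the 40 genes and searched for this core on both strands. It was found for 5 of 16 cytosolic genes (Aars, Gars, Iars, Tars and Yars) and for 0 of 14 mitochondrial genes, beside 3.97% of all 32851 promoters and 2.23% of those of tested protein-coding genes. Of the 7 genes that rose, 5 had a matched promoter and 3 held the core, while Iars and Tars held it and did not pass the test. Kars and Eef1e1 were searched without a match, and the promoters of Wars1 and Nars were not searched. A match describes letters only and is no evidence of binding.

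The promoters of the 3 genes that rose and hold the core are shown from 250 bases before to 30 after the start, 5′ to 3′ along the gene's strand, and Iars and Tars as the bases around it, with the core in capitals. In Aars, Gars, Iars and Tars it lies on the opposite strand, so its reverse complement is seen. It begins 112 bases before the start and again at base 10 after it in Aars, 30 bases before it in Gars, 15 bases before it in Tars, and at base 4 in Yars and base 8 in Iars.
Aars, chr8:111033592-111033871, plus strand: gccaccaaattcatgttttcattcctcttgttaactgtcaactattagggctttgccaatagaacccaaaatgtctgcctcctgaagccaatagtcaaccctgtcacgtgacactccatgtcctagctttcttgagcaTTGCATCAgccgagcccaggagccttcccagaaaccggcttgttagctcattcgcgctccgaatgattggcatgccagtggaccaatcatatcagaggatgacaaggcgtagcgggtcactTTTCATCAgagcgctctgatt
Gars, chr6:55037751-55038030, plus strand: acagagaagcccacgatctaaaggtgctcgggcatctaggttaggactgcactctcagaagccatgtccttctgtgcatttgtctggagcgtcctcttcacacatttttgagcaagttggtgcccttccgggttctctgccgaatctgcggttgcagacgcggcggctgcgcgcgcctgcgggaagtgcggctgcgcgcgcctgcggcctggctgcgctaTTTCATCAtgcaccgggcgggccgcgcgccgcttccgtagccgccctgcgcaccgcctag
Yars, chr4:129189653-129189932, plus strand: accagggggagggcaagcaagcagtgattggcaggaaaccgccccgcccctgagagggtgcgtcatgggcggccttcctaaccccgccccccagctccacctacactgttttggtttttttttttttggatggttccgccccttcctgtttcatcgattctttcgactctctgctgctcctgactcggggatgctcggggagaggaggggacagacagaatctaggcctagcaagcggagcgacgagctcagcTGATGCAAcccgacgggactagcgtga
Iars, chr13:49682121-49682159, plus strand: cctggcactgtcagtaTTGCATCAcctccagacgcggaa
Tars, chr15:11399650-11399689, minus strand: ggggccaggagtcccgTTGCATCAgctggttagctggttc
The core was TGATGCAA in Yars, Iars, Tars and the upstream copy of Aars, and TGATGAAA in Gars and the downstream copy of Aars. The p53 half-site, searched the same way, was found in 2 of the 30 genes, Aars2 and Rars2, beside 8.36% of all promoters. Neither of the pair passed the test.

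The 17 mitochondrial enzymes had values in both directions. At a limma adjusted p under 0.05, 0 rose and 2 fell, Nars2 and Fars2. The falls are 11.8% of the 17, beside 16.3% of all genes and 7.38% of nuclear protein-coding genes that fell. At an unadjusted p under 0.05, 1 gene was higher (Yars2) and the same count of 2 lower, with no share of all genes counted. Both edgeR and DESeq2 called 0 higher, where 10.6% and 8.41% of all genes rose. The median log2 fold change was 0.02, 9 values were positive and 8 negative, and the groups were apart upwards in 6 genes (35.3%, beside 36.6% of all genes and 44.7% of protein-coding genes) and downwards in 5 (29.4%, beside 30.9% and 20.2%). Summed over the 17 enzymes, the level was 329.8 and 335.3 CPM in DMSO and 333.2 and 323.5 CPM with the activator, whereas the 23 cytosolic genes summed to 1399.7 and 1407 CPM and to 1604 and 1627 CPM. The difference between the cytosolic and mitochondrial sets was not tested.

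**Figure D2:**
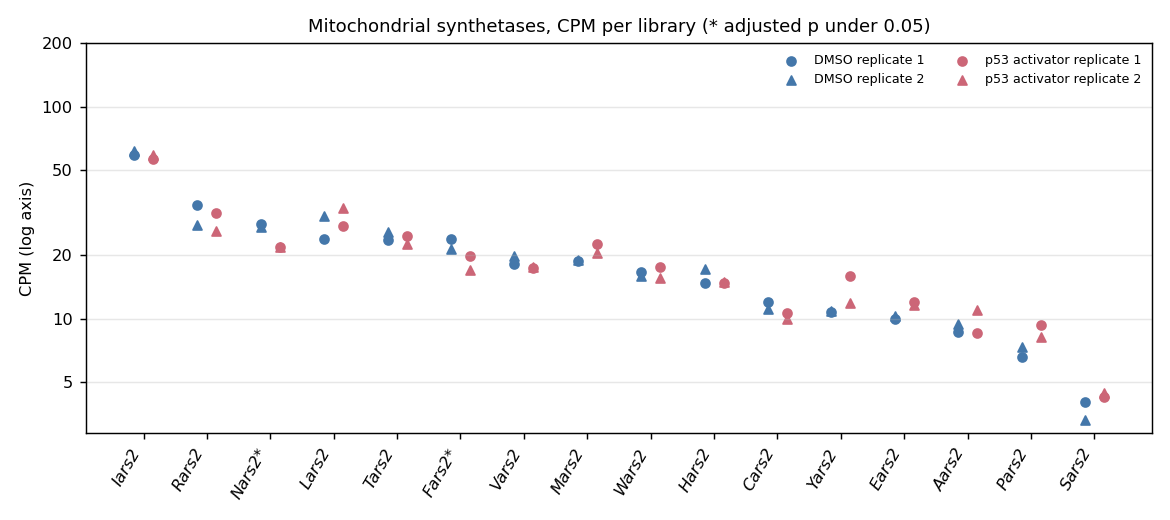
CPM of 16 mitochondrial synthetase genes in each of the 4 libraries, on a log axis, ordered by the DMSO mean; blue marks are DMSO, red marks the p53 activator, circles replicate 1 and triangles replicate 2. Both red marks lie above both blue marks in 5 of these genes and below in 5, and stars mark Nars2 and Fars2, which fell.

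Nars2, which charges mitochondrial asparagine tRNA, stood at 28.0 and 27.1 CPM under DMSO against 21.8 and 21.7 CPM under the activator. Replicates were nearly equal in both groups and the groups were apart, a log2 fold change of -0.33 ± 0.11 (adjusted p = 0.0128), and -0.47 (adjusted p = 0.000925) under the protein-coding total. Its cytosolic counterpart Nars rose, with a log2 fold change of 0.26. Fars2, the mitochondrial phenylalanine enzyme, stood at 23.9 and 21.4 CPM against 19.8 and 16.9 CPM. Its groups were apart by less than the gap between the libraries of either group, a log2 fold change of -0.29 ± 0.12 (adjusted p = 0.0413), and -0.43 (adjusted p = 0.00582) under the protein-coding total.

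Scaling to the protein-coding total lowered log2 fold changes by a median of 0.14, so it could hardly have ended a fall. Both falls were also called under it, where 12.9% of genes fell. They were lost in DESeq2 (9.71% of genes fell), without DMSO replicate 1 (8.68%), without p53 activator replicate 2 (10.7%) and with a spread that did not follow expression (11.8%), where 0 of the 17 passed the test downwards. The call of Fars2 was also lost with no filter on low values.

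Iars2, the isoleucine enzyme and the most abundant mitochondrial synthetase by CPM, stood at 59.4 and 61.8 CPM under DMSO against 56.6 and 59.2 CPM under the activator. The groups were apart by a small step, a log2 fold change of -0.06 with a 95% interval of -0.23 to 0.10 (adjusted p = 0.595), and its exons share 2034 bases with Rab3gap2 on the opposite strand. Yars2 (tyrosine) had the largest positive value, at 10.8 and 10.9 CPM and at 15.9 and 11.9 CPM, with 1 activator library far above the other (0.32, adjusted p = 0.0677). Pars2 (proline), Ears2 (glutamate), Sars2 (serine), Mars2 (methionine), Lars2 (leucine), Aars2 (alanine) and Wars2 (tryptophan) had positive log2 fold changes from 0.02 to 0.29, and none passed the test. Cars2 (cysteine), Vars2 (valine), Rars2 (arginine), Hars2 (histidine) and Tars2 (threonine) had values from -0.15 to -0.06, and none passed the test. Rars2 and Lars2 varied within each group by more than between groups, Rars2 at 34.4 and 27.7 CPM under DMSO against 31.4 and 26.02 CPM under the activator.

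**Figure D3:**
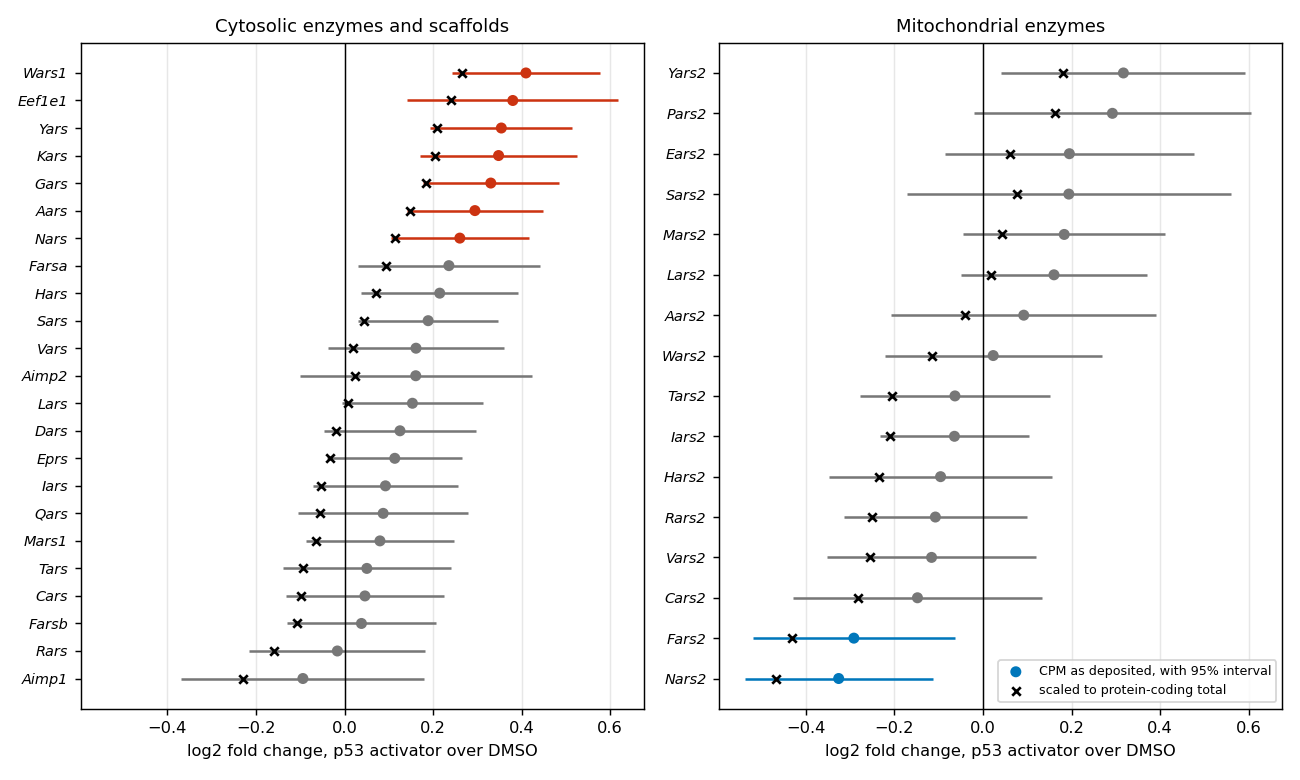
Log2 fold change of the p53 activator over DMSO on the log2(CPM + 1) scale for the 23 cytosolic genes (left) and 16 mitochondrial genes (right), with limma's 95% intervals; red marks genes that rose, blue genes that fell and grey neither, and crosses give the value after scaling to the protein-coding total. The crosses lie to the left of the points by about 0.14, and those of Wars1, Yars and 11 other cytosolic genes stay above 0.

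Per length, the cytosolic enzymes were the more abundant. Divided by annotated exon length, the DMSO mean was 53.5 CPM per kb for Gars, the highest of the 40, and 35.4 and 33.8 CPM per kb for Eprs and Nars, while Rars2 (16.6 CPM per kb) was the highest mitochondrial enzyme. In 13 of 14 pairs of enzymes for the same amino acid the cytosolic one had the higher CPM per kb, by a median ratio of 4.61, and the exception was arginine (Rars over Rars2, 0.885). In 10 of the 14 pairs the log2 fold change of the cytosolic enzyme was also the larger. The annotation used for the lengths may not be the one used for counting. Hars and Hars2, which lie head to head and are close relatives, share 195 exonic bases on opposite strands, so their reads may not be fully separate.

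The 2 genes that fell were also the longest from start to end. Fars2 spans 609 kb and Nars2 113 kb, while the other 38 genes span under 100 kb, a comparison chosen after the values were seen. Across the 40 genes the Spearman correlation of gene length with log2 fold change was -0.34. It was -0.61 across the 17 mitochondrial enzymes, -0.205 across the 23 cytosolic genes and -0.089 across 12783 tested protein-coding genes. These values are a description over genes that share the same 4 libraries. Among protein-coding genes, 5.37% fell below 10 kb, 5.36% from 10 to 30 kb, 8.39% from 30 to 100 kb, 9.28% from 100 to 300 kb, where Nars2 lies, and 16.1% from 300 kb up, where Fars2 lies. In the same order 18.9%, 22%, 22.8%, 19.1% and 22.2% rose. The sources used here do not say whether reads in introns were counted, and the part of gene length in these falls was not tested.

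**Figure D4:**
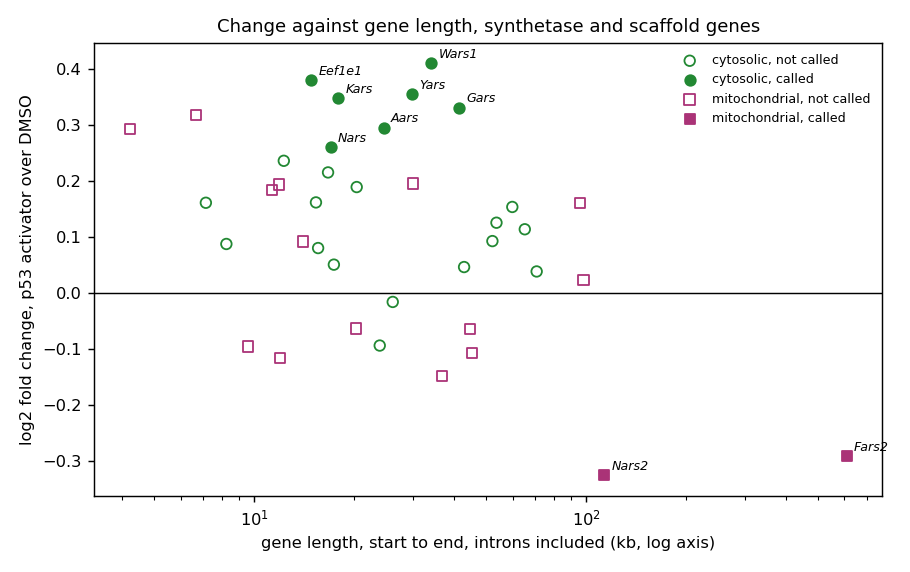
Log2 fold change on the log2(CPM + 1) scale against gene length from start to end in kb (log axis) for 39 of the genes; green circles are cytosolic, purple squares mitochondrial, and filled marks passed the test. The 2 genes longer than 100 kb, Nars2 and Fars2, lie lowest, and the 7 filled circles lie between 14.9 and 41.5 kb.

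Other genes of the ATF4 amino acid response were counted as 1 list. Of 27 listed, 25 were tested, 8 rose (32.0%) and 1 fell (4.0%), with a median log2 fold change of 0.16. Of all genes 16.9% rose and 16.3% fell, and of protein-coding genes 20.9% and 7.38%. The 2 with the smallest p were amino acid transporters: Slc7a1, which carries cationic amino acids, at 78.9 and 88.8 CPM in DMSO and 109.8 and 119 CPM with the activator (0.45 ± 0.08, adjusted p = 5.66e-06), and Slc7a5, which carries large neutral ones, at 156 and 156 CPM and 194 and 218 CPM (0.40 ± 0.08, adjusted p = 2.87e-05). Both groups were apart in each. Slc7a11, the cystine transporter and the most abundant gene of the list, rose too (0.28, adjusted p = 0.00356). Atf4 itself stood at 68.5 and 66.4 CPM against 89.2 and 82.9 CPM, with both activator libraries higher (0.35, adjusted p = 0.000512). The other genes that rose were Slc38a2, Ddit4, Sesn2 and Asns, the asparagine synthetase, and Eif2ak4, the kinase GCN2 that senses uncharged tRNA, fell (-0.27, adjusted p = 0.0272). Ddit4 and Sesn2 are also known as targets of p53.

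The stress genes Ddit3, Trib3 and Chac1, further known targets of ATF4, had log2 fold changes of 0.16, 0.18 and 0.07 and did not pass the test. Genes other than Slc7a1, Slc7a5 and Slc7a11 were named after their values were seen. Under the protein-coding total 3 genes of the list rose, Slc7a1, Slc7a5 and Ddit4, and 1 fell, beside 4.44% and 12.9% of genes, while Atf4 had a log2 fold change of 0.20 (adjusted p = 0.0611). Without DMSO replicate 1, 5 of the list rose, beside 6.83% of genes.

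**Figure D5:**
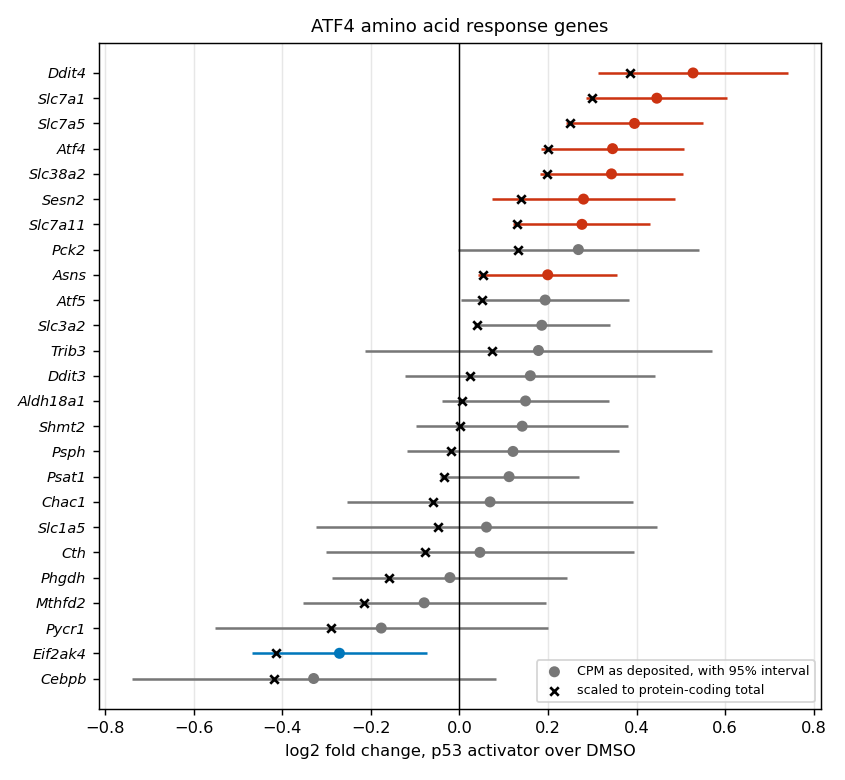
Log2 fold change of the p53 activator over DMSO on the log2(CPM + 1) scale for the 25 tested genes of the ATF4 amino acid response, with limma's 95% intervals; red marks genes that rose, blue the gene that fell and grey neither, and crosses give the value after scaling to the protein-coding total. The 8 red points lie between 0.20 and 0.53, and 3 of them rose under that scaling as well.

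Genes around the charging step were counted in the same fit, in which 16.9% of all genes rose and 16.3% fell. Of 11 other genes of charging and editing, 1 rose, Tarsl2, a second cytosolic threonine enzyme, at 30.9 and 33.9 CPM in DMSO and 39.0 and 37.8 CPM with the activator (0.24 ± 0.10, adjusted p = 0.0453), and 0 fell. The call of Tarsl2 was lost under the protein-coding total (0.095, adjusted p = 0.536), in edgeR (adjusted p = 0.0940), in DESeq2 and when any 1 library was left out. Of 6 cytosolic elongation factor genes, 1 rose, Eef1a2, the neuronal form of the factor that delivers charged tRNA, at 238 and 246 CPM and 293 and 321 CPM (0.34 ± 0.08, adjusted p = 0.000362). Its more abundant relative Eef1a1 had a log2 fold change of 0.16 (adjusted p = 0.192). Under the protein-coding total 1 of the 6 rose, Eef1a2, and 1 fell, Eef1b2, beside 4.44% and 12.9% of genes. Of the 6 mitochondrial translation factors, 1 fell, Gfm2, which recycles mitochondrial ribosomes, from 47.3 and 43.6 CPM to 36.3 and 31.1 CPM (-0.42 ± 0.09, adjusted p = 0.000228). Scaled to the protein-coding total, 2 of these 6 fell, Gfm2 and Mtif2. Of 20 tested tRNA processing genes, 0 rose and 1 fell, Pop1, a subunit of RNase P (-0.36, adjusted p = 0.0116), while the tRNA ligase Rtcb, the most abundant, had a value of 0.11. With that scaling 2 of the 20 fell, Pop1 and Rpp30, beside 12.9% of genes. No gene of that list fell in DESeq2, without DMSO replicate 1 or without p53 activator replicate 1.

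Mitochondrial tRNA genes, whose RNAs the mitochondrial enzymes charge, were measured in part. Of 11 listed tRNA genes of the mitochondrial genome, 8 were tested, 0 had a positive log2 fold change and 5 fell, with TrnE at -1.26, TrnS1 at -1.25 and TrnP, the most abundant, at -0.47, beside 16.3% of all genes that fell. RNAs of the whole mitochondrial genome also fell, from 15.7% and 14.3% of reads in DMSO to 8.98% and 10.007% with the activator. Whether the tRNA genes fell by more than that genome as a whole was not tested. TrnC, TrnY and TrnT did not pass the test, and TrnL2, below the filter on low values, was not lower. Asparagine and phenylalanine tRNAs of the mitochondria, the substrates of Nars2 and Fars2, were not analysed here. These short genes lie within long precursor RNAs, so reads over them need not come from finished tRNAs.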

How the data were processed

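The authors deposited 1 table of CPM for 18854 genes in 4 libraries. The unit was read from the values: each column's values are whole multiples of 1 step, so whole reads could be recovered for 100% of them (tolerance 0.01 reads). Ribosomal RNA was depleted, per the labels' protocols. TopHat2, Cufflinks 2.0.0 and build mm9 are named without a role, per the submitters' processing notes. For the program, strand setting and annotation of the counting: not given in the sources used here.

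The 16654 genes reaching 1 CPM in 2 or more libraries were fitted as log2(CPM + 1), which understates changes of low genes, with limma 3.58.1 in R 4.3.3. The fit used empirical Bayes moderation with a trend, Benjamini-Hochberg adjustment over all genes tested, two-sided, and calls at an adjusted p under 0.05. The 2 residual degrees of freedom were joined by 98.0 prior ones, so a spread common to all genes weighs heavily. Libraries of a group differed by more than sampling noise (chi-square per degree of freedom 4.52 and 5.16). As alternatives, the recovered reads were tested with edgeR 4.0.16 (quasi-likelihood) and with DESeq2 1.42.0. The fit was also run on simulated data, with larger changes than those of the called members and with fewer changed genes than here. That run cannot vouch for the calls given here. Gene classes and lengths came from GENCODE vM21, on GRCm38 rather than the build in the notes.

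Members and lists were chosen with earlier results of these data known. Values per library are given for called members and, per subgroup, the most abundant and the most changed member, and of other lists for the 2 called genes with the smallest p and the most abundant. Further genes were named after their values were seen. The values of 1 member, which the counts and medians include, are not reported here.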

Additional observations from a re-analysis of the deposited data

How the results depend on the processing

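Among 15 alternatives, the 9 called genes kept their direction in all 135 values and their call in 107. Wars1 kept its call throughout and Yars under all but limma without a trend. The 7 cytosolic rises became 2 under the protein-coding total and 1 without a trend, and ranged from 3 to 7 when 1 library was left out, while 0 fell throughout. The 2 mitochondrial falls became 1 with no filter on low values and 0 without a trend or in DESeq2, and ranged from 0 to 2 when 1 library was left out, where mitochondrial rises ranged from 0 to 1. The 2 replicate numbers shared by the groups are not stated to pair cultures (correlation of same-numbered deviations 0.12 across genes). With a replicate block, 10 cytosolic genes and 1 mitochondrial gene rose and 2 mitochondrial genes fell, while of all genes 22.2% rose and 18.8% fell. Of the other 31 genes, 16 changed sign at least once, and no value of changed sign passed the threshold. Of these 16, Vars (0.33) and Lars2 (0.34) rose without DMSO replicate 2. Under the protein-coding total these were Eprs (-0.033), Iars (-0.053), Mars1 (-0.065), Qars (-0.056), Dars (-0.019), Cars (-0.098), Farsb (-0.11), Tars (-0.093), Aars2 (-0.041) and Wars2 (-0.12), by the lower median of that scaling. In edgeR it was Wars2 (-0.0078). When 1 library was left out, the log2 fold changes that crossed 0 ranged as follows: Rars (-0.083 to 0.051), Cars (-0.0007 to 0.093), Farsb (-0.022 to 0.099), Tars (-0.030 to 0.13), Vars (-0.012 to 0.33), Aars2 (-0.070 to 0.25), Hars2 (-0.20 to 0.011), Lars2 (-0.015 to 0.34), Rars2 (-0.26 to 0.045), Tars2 (-0.13 to 0.0008) and Wars2 (-0.057 to 0.10). With 2 libraries per group the log2 fold changes of the 40 genes had SEs from 0.08 to 0.18, and the smallest called rise was 1.20-fold. The lone library left by omitting its partner is assumed to vary like the other group.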
